A study of Mus musculus with 30 samples.

Results

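The comparison sets 6 samples labelled invasive carcinoma (C03, C05, C06, C08, C09 and C12) against 8 labelled hyperplasia (A01 to A08), 14 of the 30 samples of a mouse series that covers 5 pathological stages. Samples were chosen by their stage label alone, with no use of expression, and every gene with enough counts was compared. Mice of both groups were male C57BL/6J and share 1 protocol: 4-nitroquinoline-1-oxide (4NQO), a carcinogen that damages DNA, was given at 100 ug/mL in drinking water for 10 weeks, starting at 6 weeks of age. No transgene and no second agent is named for either group. The labels call the tissue of every sample oral squamous cell carcinoma, and give neither the age at sampling nor the site in the mouth. They also do not state that samples are different animals, so a p-value here reflects only how far these samples spread, which may be technical. Sample codes begin with C in invasive carcinoma and with A in hyperplasia, so a batch that follows the letter cannot be told apart from stage.

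Hyperplasia is a thickened but still ordered epithelium, whereas an invasive squamous carcinoma has crossed the basement membrane into the connective tissue and muscle beneath it. Crossing takes secreted proteases, such as matrix metalloproteinases and plasmin, and the laminins and integrins by which basal keratinocytes hold to and move over the membrane. Carcinomas of the mouth also draw in neutrophils and lymphocytes, and CD8 T cells recognise tumour cells through MHC class I molecules, whose genes interferons induce.

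Total counts were 18692589 to 28023098 in invasive carcinoma and 17725604 to 26625949 in hyperplasia. Levels below are CPM, counts scaled to library size with TMM factors, and are given for each group as the lowest, highest and median sample, and log2 fold changes carry ± 1 SE. Markers of squamous epithelium, basal and suprabasal together, summed to 38587 to 54447 CPM in invasive carcinoma (median 47443.5). In hyperplasia the sum was 37695 to 55014 CPM (median 47845), so these ranges overlapped. The layers taken apart were not alike. Basal keratinocyte genes summed to 9582.8 to 23392 CPM in invasive carcinoma against 6621.7 to 9076.7 CPM in hyperplasia, without overlap. Suprabasal keratins overlapped, with medians of 37648.5 CPM in invasive carcinoma and 44523 CPM in hyperplasia. Skeletal muscle markers summed to 23456 to 56402 CPM in invasive carcinoma (median 44739.5) against 49399 to 87653 CPM in hyperplasia (median 61236). Salivary gland markers varied widely within both groups, from 72.6 to 13677 CPM in invasive carcinoma and from 44.0 to 21251 CPM in hyperplasia. Because the muscle sum moved with stage, counts of calls are also given from a fit with the muscle score of each sample as a covariate.

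Invasive carcinoma and hyperplasia differed in a large part of the transcriptome, with about as many genes up as down. Of 17638 genes tested, 6768 were called (38.4%, edgeR's quasi-likelihood test with Benjamini-Hochberg adjustment, adjusted p under 0.05), of which 3376 were higher (19.1% of the tested genes) and 3392 lower (19.2%) in invasive carcinoma. Most differences were small: the median size among called genes was 0.487 on the log2 scale, and 470 genes were higher and 485 lower by 2-fold or more. All 6 invasive carcinomas lay above all 8 hyperplasia samples for 688 genes (3.9%), and below all 8 for 698 genes (3.96%). The median log2 fold change over all tested genes was -0.0115, and 48.7% of them were positive. The balance of higher and lower calls moved with the scaling. Upper-quartile factors gave 2995 higher and 3744 lower, and RLE factors 3493 higher and 3314 lower. With the muscle score as a covariate 1830 genes were called (10.4%), 1063 higher (6.03%) and 767 lower (4.35%), and 1691 of the 1830 were also called without it. Counts of list members are to be read against 19.1% higher and 19.2% lower, or 6.03% and 4.35% with the covariate. Counts with no overlap are to be read against 3.9% above and 3.96% below. In the fit with no covariate, 3175 genes were called when C09 and C12 were left out.

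**Figure D1:**
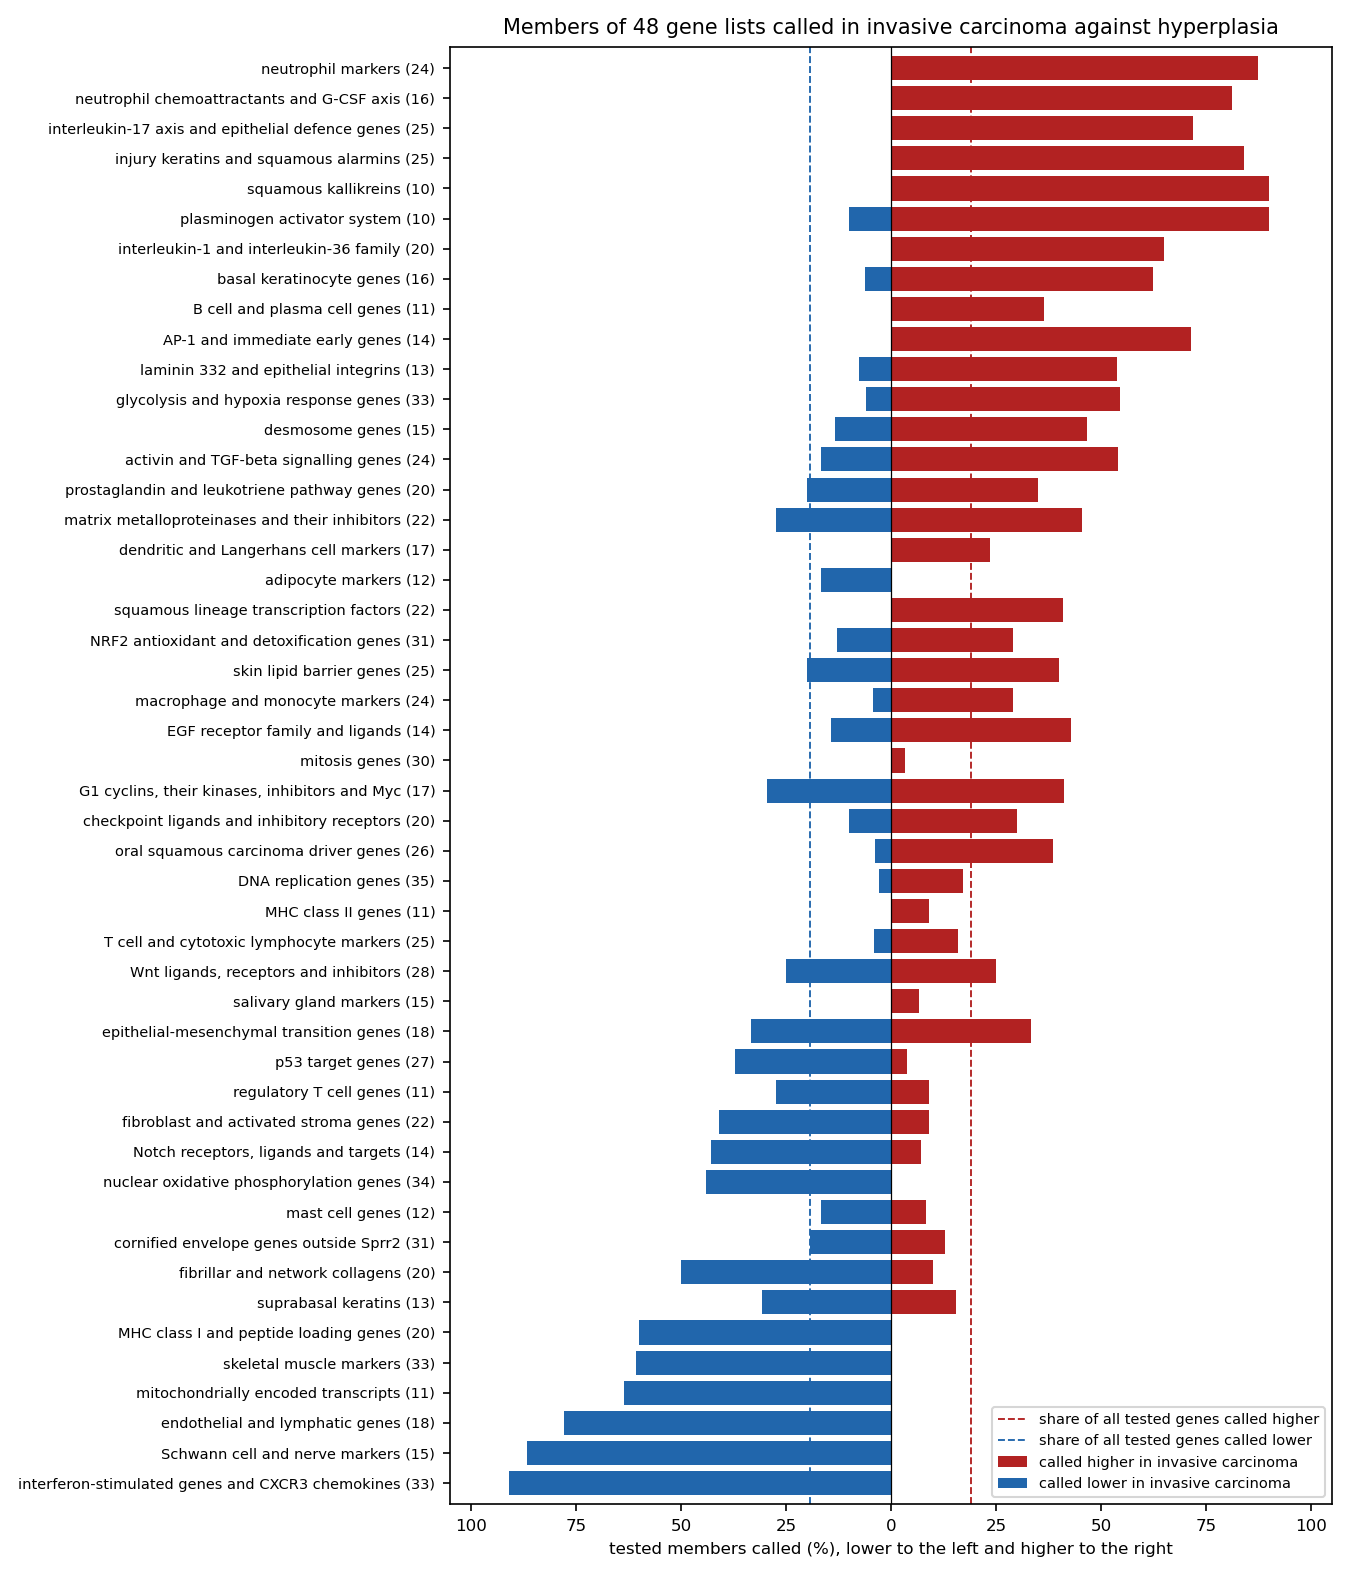
Members of each gene list called higher (red, to the right) or lower (blue, to the left) in invasive carcinoma than in hyperplasia, as a percent of the tested members, with vertical lines at the shares over all 17638 genes (19.1% higher, 19.2% lower). Neutrophil lists, injury keratins and kallikreins are nearly all red, and interferon-stimulated genes, Schwann cell markers and endothelial genes nearly all blue.

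The 15 largest increases included a casein, metalloproteinases, chemokines and secreted defence proteins. Csn1s1, a casein gene best known from milk (ENSMUSG00000070702.9, GRCm38 chromosome 5, 87666208 to 87682578), had 1.23 to 75.4 CPM (median 13.1) in invasive carcinoma, against 0 to 0.951 CPM (median 0.198) in hyperplasia (log2 fold change 6.5 ± 0.93, adjusted p = 3e-05). The 6 invasive carcinomas lay above all 8 hyperplasia samples, and within hyperplasia A05 stood above the other 7. Lrat, which esterifies retinol for storage, had 4.24 to 55 CPM (median 9.72) in invasive carcinoma, against 1.07 to 3.3 CPM (median 1.63) in hyperplasia and also separated the groups (log2 fold change 3.16 ± 0.47, adjusted p = 3.1e-05). Uox, the urate oxidase that rodents use to break down uric acid, had 33.8 to 191 CPM (median 74.9) in invasive carcinoma, against 0.472 to 54 CPM (median 1.07) in hyperplasia, with 5 of 6 invasive carcinomas above all hyperplasia samples (log2 fold change 3.32 ± 0.76, adjusted p = 0.0016).

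By the size of adjusted p, the increases were led by Adam8, a membrane protease, which had 22.1 to 39.1 CPM (median 30.5) in invasive carcinoma, against 10.4 to 14.5 CPM (median 12) in hyperplasia (log2 fold change 1.31 ± 0.13, adjusted p = 1.6e-07). Cxadr, a cell junction protein that serves as a virus receptor, had 49.7 to 97.1 CPM (median 76.9) in invasive carcinoma, against 25.7 to 39.6 CPM (median 31.4) in hyperplasia (log2 fold change 1.19 ± 0.13, adjusted p = 3.3e-07). Fgfbp1, which releases fibroblast growth factors from the matrix, had 92.6 to 163 CPM (median 130) in invasive carcinoma, against 50.3 to 70.6 CPM (median 66) in hyperplasia (log2 fold change 0.99 ± 0.11, adjusted p = 3.5e-07). None of these 3 genes overlapped between the groups. Lgi2, a secreted protein, did not overlap either, at 20.9 to 82.1 CPM (median 37.1) in invasive carcinoma, against 4.46 to 14.1 CPM (median 6.62) in hyperplasia (log2 fold change 2.57 ± 0.27, adjusted p = 3.5e-07).

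Among genes that fell, the smallest adjusted p belonged to Cpt1c, a brain form of carnitine palmitoyltransferase (ENSMUSG00000007783.10, chromosome 7, 44959372 to 44974851), with 5.06 to 9.6 CPM (median 7.18) in invasive carcinoma, against 18.5 to 26.2 CPM (median 22) in hyperplasia (log2 fold change -1.59 ± 0.11, adjusted p = 1.5e-10). Hyperplasia stood apart here from every other stage: the means were normal 4.86, hyperplasia 22, dysplasia 7.59, carcinoma in situ 7.69, invasive carcinoma 7.28 CPM. Mcam, a cell adhesion molecule of vessels, behaved likewise, with 22.5 to 35.7 CPM (median 28.8) in invasive carcinoma, against 55.6 to 68.4 CPM (median 61.4) in hyperplasia (log2 fold change -1.08 ± 0.10, adjusted p = 5.7e-08) and means of 24.9, 61.9, 27, 30.2 and 29.3 CPM in the same stage order. Aldh1a7, an aldehyde dehydrogenase, had 2.02 to 2.99 CPM (median 2.54) in invasive carcinoma, against 8.22 to 15.1 CPM (median 11.5) in hyperplasia (log2 fold change -2.17 ± 0.18, adjusted p = 2.7e-09). Fzd4, a Wnt receptor of vessel walls, had 33.2 to 53.1 CPM (median 51.3) in invasive carcinoma, against 75.8 to 120 CPM (median 107) in hyperplasia (log2 fold change -1.06 ± 0.11, adjusted p = 3.3e-07), and no invasive carcinoma reached the hyperplasia range for any of these 4 genes.

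**Figure D2:**
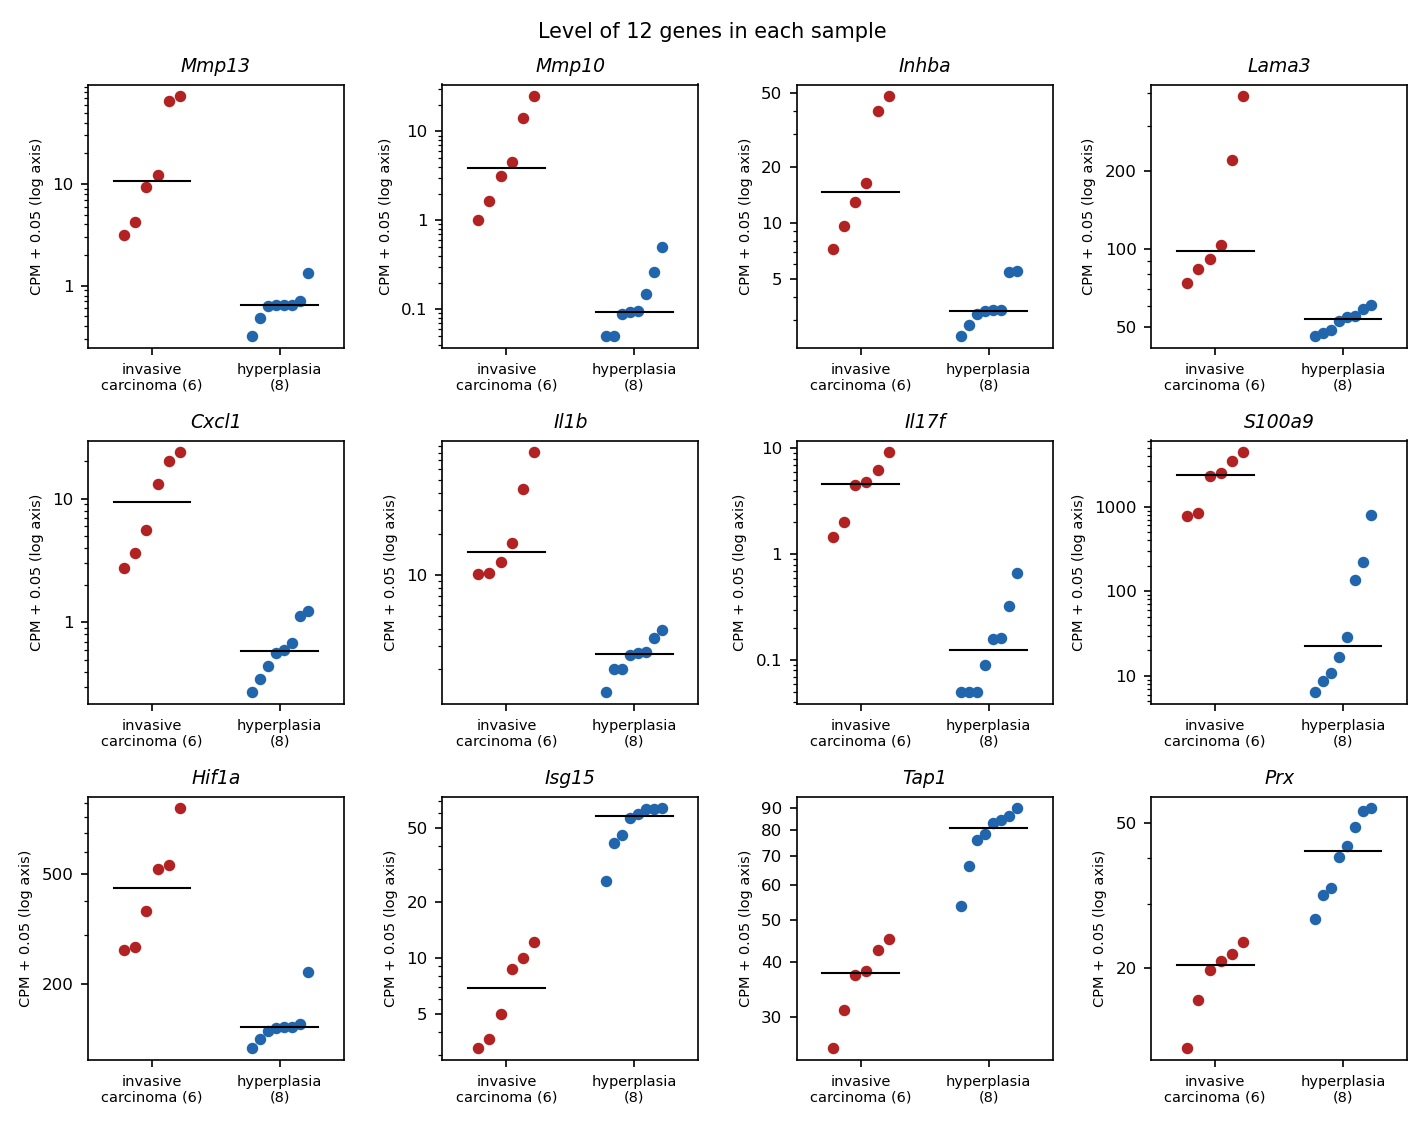
Level of 12 genes in each of the 6 invasive carcinomas (red, left) and 8 hyperplasia samples (blue, right), as CPM + 0.05 on a log axis, with a black line at the group median. Mmp13, Lama3 and Il1b have no overlap and a wide spread within invasive carcinoma (3.13 to 72.4 CPM for Mmp13), S100a9 overlaps through 1 hyperplasia sample at 797 CPM, and Isg15, Tap1 and Prx are lower in all 6 invasive carcinomas.

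Several secreted matrix metalloproteinases rose, while Mmp2 and the inhibitors Timp2 and Timp3 fell. Of 22 tested members of the family and its inhibitors 10 were higher and 6 lower, against 19.1% and 19.2% of all genes, and with the muscle covariate 4 were higher and 1 lower, against 6.03% and 4.35% of all genes in that fit. Mmp13, a collagenase (ENSMUSG00000050578.10, chromosome 9, 7272514 to 7283331), had 3.13 to 72.4 CPM (median 10.7) in invasive carcinoma, against 0.27 to 1.29 CPM (median 0.594) in hyperplasia, a rise with no overlap (log2 fold change 5.46 ± 0.86, adjusted p = 6.2e-05). Within invasive carcinoma C09 (64.7 CPM) and C12 (72.4 CPM) were far above the others, the next of which, C06, had 12.1 CPM.

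Mmp10, a stromelysin that cuts many matrix proteins, had 0.955 to 24.7 CPM (median 3.81) in invasive carcinoma, against 0 to 0.448 CPM (median 0.0442) in hyperplasia (log2 fold change 6.27 ± 1.0, adjusted p = 6.3e-05). The related Mmp3 had 9.51 to 101 CPM (median 21.8) in invasive carcinoma, against 3.67 to 7.78 CPM (median 4.5) in hyperplasia (log2 fold change 2.93 ± 0.51, adjusted p = 0.00017). Mmp12, the macrophage elastase, was the most even of the group, at 4.56 to 10.7 CPM (median 7.13) in invasive carcinoma, against 0.854 to 2.55 CPM (median 1.12) in hyperplasia (log2 fold change 2.45 ± 0.30, adjusted p = 2.7e-06). The groups did not overlap for any of these 3. Mmp9, a gelatinase abundant in neutrophils, overlapped in 1 invasive carcinoma, at 3.95 to 28.1 CPM (median 9.32) in invasive carcinoma, against 1.42 to 4.12 CPM (median 2.49) in hyperplasia (log2 fold change 2.12 ± 0.53, adjusted p = 0.0033). The interstitial collagenase gene Mmp1b had 42 counts over 5 of the 6 invasive carcinomas and none in hyperplasia, which makes it at least 17.9-fold higher against a floor of 3 counts over the group.

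In the other direction Mmp2, a gelatinase of fibroblasts, had 50.3 to 81.9 CPM (median 71.1) in invasive carcinoma, against 83.7 to 113 CPM (median 88.8) in hyperplasia and did not overlap (log2 fold change -0.40 ± 0.08, adjusted p = 0.00068). Timp2 and Timp3, inhibitors of these enzymes, fell by 0.48 ± 0.11 and by 0.69 ± 0.15 on the log2 scale, with 5 of 6 invasive carcinomas below all hyperplasia samples for each. Timp1, the inhibitor that inflammation induces, rose instead, to 1.64 to 9.22 CPM (median 5.89) in invasive carcinoma, against 1.21 to 3.53 CPM (median 2.39) in hyperplasia (log2 fold change 1.38 ± 0.42, adjusted p = 0.012). The other members called were Mmp8, Mmp14 and Mmp28, which were higher, and Mmp11, Mmp16 and Mmp23, which were lower. With the muscle covariate Mmp9, Mmp1b, Timp1, Timp2 and Timp3 were no longer called.

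The promoters of the metalloproteinases that rose are shown for the heptamer TGANTCA, the sequence that AP-1, the dimer of Fos and Jun proteins, is known to bind. Within the 250 bases before the start in RefSeq's annotation of GRCm38.p6, 5 of 9 called-higher members with a window had it on either strand (55.6%), against 7.82% of 27025 genes with such a window and 6.43% of the tested ones. A match is a description of the letters and no sign of binding. The 5 members with a match, Mmp1b, Mmp3, Mmp10, Mmp12 and Mmp13, lie near one another on chromosome 9, so they are not independent. The stretches around the match follow, 5′ to 3′ on the gene's strand, with the heptamer in capitals.
Mmp13 (chr9:7272464-7272500, plus strand): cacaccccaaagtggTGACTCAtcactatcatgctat
Mmp10 (chr9:7502264-7502300, plus strand): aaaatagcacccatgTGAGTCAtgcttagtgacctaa
Mmp3 (chr9:7445761-7445797, plus strand): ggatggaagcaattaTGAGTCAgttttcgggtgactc
Mmp12 (chr9:7347315-7347351, plus strand): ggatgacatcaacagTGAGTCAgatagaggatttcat

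The plasminogen activator system moved nearly as a whole. Of 10 tested members 9 were higher and 1 lower, and 5 and 1 with the muscle covariate (6.03% and 4.35% of all genes). Plau, the urokinase that turns plasminogen into plasmin, had 44.1 to 139 CPM (median 73.6) in invasive carcinoma, against 24.9 to 44.9 CPM (median 31.1) in hyperplasia, with 5 of 6 invasive carcinomas above all hyperplasia samples (log2 fold change 1.29 ± 0.20, adjusted p = 3.9e-05). Anxa2, a surface receptor that brings plasminogen and its activators together, had 525 to 982 CPM (median 642) in invasive carcinoma, against 378 to 447 CPM (median 409) in hyperplasia (log2 fold change 0.79 ± 0.13, adjusted p = 5.2e-05). The 1 member that fell was Serpine2, a thrombin inhibitor, at 54.9 to 66.6 CPM (median 62.6) in invasive carcinoma, against 78.9 to 100 CPM (median 93.3) in hyperplasia (log2 fold change -0.56 ± 0.10, adjusted p = 0.00012).

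Genes by which basal keratinocytes grip the basement membrane rose as well. Lama3, a chain of the laminin that anchors epithelium, had 74 to 389 CPM (median 97.8) in invasive carcinoma, against 46 to 60.6 CPM (median 53.4) in hyperplasia (log2 fold change 1.6 ± 0.30, adjusted p = 0.00028), with no overlap. The highest values of Lama3, as of Itga6, came from C09 and C12. Itga6, an integrin chain of hemidesmosomes, rose by 1.14 ± 0.20 and Itga3, a laminin receptor, by 0.83 ± 0.14, each with all 6 invasive carcinomas above all hyperplasia samples. Of 13 tested genes of that laminin and of epithelial integrins 7 were higher and 1 lower, and 2 and 0 with the muscle covariate, under which Lama3 and Itga6 lost their call. Without C09 no member was lower.

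Genes of epithelial-mesenchymal transition did not move as 1 block: 6 of 18 were higher and 6 lower, and 4 and 0 with the muscle covariate. Snai2, a repressor active in migrating keratinocytes, had 37.8 to 78.5 CPM (median 50.6) in invasive carcinoma, against 16.3 to 32.9 CPM (median 20.9) in hyperplasia and rose without overlap (log2 fold change 1.22 ± 0.18, adjusted p = 3.2e-05). The epithelial cadherin Cdh1, which the transition is known to reduce, was also higher, at 282 to 412 CPM (median 319) in invasive carcinoma, against 217 to 271 CPM (median 248) in hyperplasia (log2 fold change 0.41 ± 0.09, adjusted p = 0.00071). Zeb1, a repressor of Cdh1, was lower, at 13.4 to 27.6 CPM (median 20.8) in invasive carcinoma, against 25 to 37.2 CPM (median 31.2) in hyperplasia (log2 fold change -0.58 ± 0.12, adjusted p = 0.00068). Both Cdh1 and Zeb1 lost their call with the muscle covariate.

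Growth factors of wounded epithelium were among the genes that rose. Hbegf, a ligand of the EGF receptor, had 22.9 to 82.4 CPM (median 59.2) in invasive carcinoma, against 13 to 30.2 CPM (median 16.3) in hyperplasia (log2 fold change 1.64 ± 0.26, adjusted p = 5.1e-05). Areg, another, had 4.51 to 26.8 CPM (median 13.7) in invasive carcinoma, against 1.67 to 7.5 CPM (median 3.43) in hyperplasia (log2 fold change 2.0 ± 0.40, adjusted p = 0.0005). Of the ligands, Btc ran the other way, with 4.68 to 7.69 CPM (median 5.86) in invasive carcinoma, against 7.94 to 9.61 CPM (median 8.68) in hyperplasia and no overlap (log2 fold change -0.49 ± 0.10, adjusted p = 0.00073). The receptor itself, Egfr, differed little, at 67.6 to 83.3 CPM (median 77.1) in invasive carcinoma, against 57.3 to 72.8 CPM (median 64.2) in hyperplasia (log2 fold change 0.22 ± 0.07, adjusted p = 0.011). In the family of 14, 6 were higher and 2 lower, and with the muscle covariate 1 and 1, with neither Areg nor Egfr called. Leaving out C09 or C12 left 1 lower member.

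Inhba, the chain of activin A, had 7.21 to 47.6 CPM (median 14.6) in invasive carcinoma, against 2.41 to 5.46 CPM (median 3.32) in hyperplasia and rose without overlap (log2 fold change 2.61 ± 0.40, adjusted p = 4.1e-05). Skil, which TGF-beta signalling induces and which restrains it, had 57.7 to 85.4 CPM (median 66) in invasive carcinoma, against 40.2 to 51.8 CPM (median 47.2) in hyperplasia (log2 fold change 0.51 ± 0.08, adjusted p = 3.2e-05). Tgfb1, the growth factor itself, had 14.3 to 30.5 CPM (median 20.8) in invasive carcinoma, against 10.2 to 15.4 CPM (median 13.2) in hyperplasia (log2 fold change 0.68 ± 0.15, adjusted p = 0.0011). Of 24 activin and TGF-beta genes 13 were higher and 4 lower, and 4 and 2 with the muscle covariate, without Tgfb1. The immediate early gene Fos had 14.2 to 128 CPM (median 38.6) in invasive carcinoma, against 9.06 to 18.2 CPM (median 14.4) in hyperplasia (log2 fold change 1.79 ± 0.31, adjusted p = 0.00013), and its relative Fosl2, at 179 to 239 CPM in invasive carcinoma against 120 to 166 CPM in hyperplasia, did not overlap. AP-1 and immediate early genes were higher in 10 of 14 members and lower in none, but in 2 with the muscle covariate, where Fosl2 was not called.

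Signals that recruit neutrophils gave some of the largest differences of all lists. Of 16 tested chemoattractants and genes of the G-CSF axis 13 were higher and none lower (9 higher with the muscle covariate), with a median log2 fold change of 2.85. Without A06 or C05 1 was lower. Cxcl1 (chromosome 5, 90891241 to 90893115), a ligand of the neutrophil receptor Cxcr2, had 2.72 to 23.5 CPM (median 9.34) in invasive carcinoma, against 0.224 to 1.19 CPM (median 0.535) in hyperplasia (log2 fold change 4.24 ± 0.58, adjusted p = 1.3e-05). Its neighbours Cxcl2 and Cxcl3, ligands of the same receptor, rose by 4.78 ± 0.78 and 5.30 ± 0.83. All 3 were higher in each of the 6 invasive carcinomas than in any hyperplasia sample. Cxcl5, a further ligand of Cxcr2, had 6.01 to 34 CPM (median 14.8) in invasive carcinoma, against 0 to 4.61 CPM (median 0.576) in hyperplasia (log2 fold change 3.77 ± 0.88, adjusted p = 0.002). Osm, a cytokine of myeloid cells, had 0.64 to 6.12 CPM (median 0.989) in invasive carcinoma, against 0.049 to 0.28 CPM (median 0.21) in hyperplasia (log2 fold change 3.33 ± 0.62, adjusted p = 0.00023). Ppbp, a platelet chemokine, overlapped in 2 invasive carcinomas, at 0.438 to 44.9 CPM (median 6.92) in invasive carcinoma, against 0.262 to 1.46 CPM (median 0.461) in hyperplasia (log2 fold change 4.34 ± 0.96, adjusted p = 0.0013).

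A form of the sequence that NF-kappaB dimers bind was searched, GGGA and TTCC with any 2 bases between. It stood within 250 bases before the start in 5 of 10 called-higher members with a window (50%), on either strand, against 1.36% of 27025 genes and 1.37% of the tested ones. It is shown in capitals for the 3 neighbouring chemokine genes, 5′ to 3′ on the gene's strand (RefSeq, GRCm38.p6), where 2 overlapping matches on opposite strands form 1 run. The run is the same in all 3 neighbours, so the 5 members with a match are not independent.
Cxcl1 (chr5:90891159-90891199, plus strand): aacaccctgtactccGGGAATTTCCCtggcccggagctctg
Cxcl2 (chr5:90903787-90903827, plus strand): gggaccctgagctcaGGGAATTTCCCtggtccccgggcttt
Cxcl3 (chr5:90786013-90786053, plus strand): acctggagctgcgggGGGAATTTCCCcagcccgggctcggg

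Markers of neutrophils themselves were higher in 21 of 24 tested members and lower in none, with a median of 3.09, and in 14 with the muscle covariate. Csf3r, the receptor for G-CSF, had 3.72 to 36.4 CPM (median 7.02) in invasive carcinoma, against 1.26 to 1.87 CPM (median 1.58) in hyperplasia and did not overlap (log2 fold change 3.04 ± 0.62, adjusted p = 0.00063). BC100530 and Stfa3, stefins found in mouse neutrophils, rose by 4.14 ± 0.41 and 2.01 ± 0.27 without overlap. The defining markers Ly6g, Elane and Camp had too few counts to be tested. The summed level of the list ran the other way from the count of members, at 921 to 1833 CPM in invasive carcinoma (median 1560) against 1402 to 1999 CPM in hyperplasia (median 1687). Most of that sum was Asprv1, which keratinocytes also express and which was not called, with medians of 1231 CPM in invasive carcinoma and 1547 CPM in hyperplasia. Without that gene, a choice made after the values were seen, the sum was 160 to 647.9 CPM in invasive carcinoma (median 224.7) against 77.4 to 308.8 CPM in hyperplasia (median 108.2). Both pairs of ranges overlapped, and in bulk tissue more or fewer cells of a type cannot be told apart from more or less RNA per cell.

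Interleukin-1 and its epithelial relatives also rose. Il1b, the secreted cytokine interleukin-1 beta, had 10 to 80 CPM (median 14.7) in invasive carcinoma, against 1.31 to 3.84 CPM (median 2.56) in hyperplasia and did not overlap (log2 fold change 3.52 ± 0.51, adjusted p = 2.4e-05). Its natural antagonist Il1rn rose too, to 95.2 to 302 CPM (median 216) in invasive carcinoma, against 38 to 98.1 CPM (median 51.4) in hyperplasia (log2 fold change 1.86 ± 0.27, adjusted p = 2.1e-05). Nlrp3, the inflammasome sensor that leads to the release of interleukin-1 beta, had 1.46 to 5.63 CPM (median 2.48) in invasive carcinoma, against 0.251 to 1.35 CPM (median 0.383) in hyperplasia (log2 fold change 2.53 ± 0.40, adjusted p = 4e-05). Il1f6, interleukin-36 alpha, had 220 to 595 CPM (median 434) in invasive carcinoma, against 66.8 to 231 CPM (median 129) in hyperplasia (log2 fold change 1.75 ± 0.28, adjusted p = 5.4e-05). The family gave 13 higher of 20 and none lower (1 without C09), and 7 higher with the muscle covariate.

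The interleukin-17 axis and epithelial defence genes were higher in 18 of 25 members and lower in none, and in 12 with the muscle covariate. Il17f itself (chromosome 1, 20777146 to 20790617) had 1.41 to 9.11 CPM (median 4.61) in invasive carcinoma, against 0 to 0.616 CPM (median 0.0739) in hyperplasia (log2 fold change 5.06 ± 0.68, adjusted p = 1.4e-05). Nfkbiz, a cofactor that interleukin-17 induces in keratinocytes, had 88.7 to 131 CPM (median 109) in invasive carcinoma, against 18.8 to 59.1 CPM (median 34.4) in hyperplasia (log2 fold change 1.62 ± 0.21, adjusted p = 7.8e-06). Zc3h12a, an RNase induced by interleukin-17 that restrains its effects, had 83.4 to 161 CPM (median 138) in invasive carcinoma, against 18.6 to 62.4 CPM (median 34.5) in hyperplasia (log2 fold change 1.84 ± 0.23, adjusted p = 4.1e-06). The groups did not overlap for these 3. Defence proteins known to be induced by the cytokine were higher too. Lcn2, which withholds iron from bacteria, had 23.8 to 113 CPM (median 58.4) in invasive carcinoma, against 1.42 to 12.8 CPM (median 2.3) in hyperplasia (log2 fold change 3.7 ± 0.51, adjusted p = 1.8e-05). The defensin Defb3 had 94.5 to 404 CPM (median 208) in invasive carcinoma, against 3.86 to 75.9 CPM (median 11.1) in hyperplasia (log2 fold change 3.45 ± 0.55, adjusted p = 6.9e-05). Saa3, an acute phase protein, had 8.18 to 83.8 CPM (median 27) in invasive carcinoma, against 0.151 to 5.88 CPM (median 1.44) in hyperplasia (log2 fold change 4.23 ± 0.85, adjusted p = 0.00054).

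S100a8 and S100a9, the 2 chains of calprotectin, are made by neutrophils and by stressed squamous epithelium. S100a9 (chromosome 3, 90692632 to 90695721) had 767 to 4370 CPM (median 2390) in invasive carcinoma, against 6.39 to 797 CPM (median 22.8) in hyperplasia (log2 fold change 3.96 ± 0.87, adjusted p = 0.0011), and S100a8 rose by 3.92 ± 0.82. For both, 5 of 6 invasive carcinomas lay above all hyperplasia samples, and the hyperplasia samples were themselves widely spread, with A05 the highest. Ptges, the enzyme that makes prostaglandin E2, had 45.6 to 93 CPM (median 82.4) in invasive carcinoma, against 17.6 to 37.5 CPM (median 28.4) in hyperplasia and did not overlap (log2 fold change 1.44 ± 0.17, adjusted p = 1.3e-06). Among prostaglandin and leukotriene genes 7 of 20 were higher and 4 lower, and 6 and 0 with the muscle covariate.

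Interferon-stimulated genes were lower in invasive carcinoma, unlike the neutrophil chemoattractant and interleukin lists. The list also holds chemokines of the receptor CXCR3, some of which were among its lower members. Of 33 tested members 30 were lower and none higher, with a median of -1.49, and 23 were lower with the muscle covariate. In 19 members invasive carcinoma lay below hyperplasia with no overlap, against 3.96% of all genes. Isg15, a ubiquitin-like antiviral protein (ENSMUSG00000035692.7, chromosome 4, 156199424 to 156200818), had 3.22 to 12.2 CPM (median 6.83) in invasive carcinoma, against 25.9 to 63.7 CPM (median 58) in hyperplasia (log2 fold change -2.88 ± 0.38, adjusted p = 9.8e-06). The RNA helicase Dhx58 had 3.12 to 7.49 CPM (median 4.68) in invasive carcinoma, against 8.73 to 21.6 CPM (median 19.3) in hyperplasia (log2 fold change -1.86 ± 0.23, adjusted p = 3.8e-06). Irf7, the factor that amplifies type I interferon, had 4.92 to 13.7 CPM (median 7.4) in invasive carcinoma, against 17.7 to 41.3 CPM (median 36.7) in hyperplasia (log2 fold change -2.0 ± 0.28, adjusted p = 1.7e-05). All 6 invasive carcinomas lay below all 8 hyperplasia samples for these 3 genes.

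Apol9a, an interferon-induced apolipoprotein L, gave one of the largest decreases, at 0.625 to 3.11 CPM (median 1.41) in invasive carcinoma, against 10.1 to 25.3 CPM (median 20) in hyperplasia (log2 fold change -3.68 ± 0.41, adjusted p = 7.2e-07). Oas1a, an enzyme that senses double-stranded RNA, had 3.97 to 9.85 CPM (median 6.43) in invasive carcinoma, against 14.2 to 34.8 CPM (median 28.5) in hyperplasia (log2 fold change -2.0 ± 0.27, adjusted p = 9.8e-06), Ifit1 fell by 2.33 ± 0.43 and Rsad2 by 1.97 ± 0.34, all with no overlap. A single hyperplasia sample, A05, was the lowest of its group for Isg15, Irf7, Dhx58, Oas1a and Apol9a, yet it stayed above every invasive carcinoma. The summed list gave 157 to 378 CPM in invasive carcinoma (median 236) against 441 to 894 CPM in hyperplasia (median 797), the stage with the highest median of the 5.

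The element that interferon regulatory factors are known to bind was searched as GAAA and GAAA with any 2 bases between. It stood in the 250 bases before the start of 10 of 21 called-lower members with a window (47.6%), on either strand, against 3.46% of 27025 genes and 3.35% of the tested ones. Matches are in capitals below, 5′ to 3′ on the gene's strand (RefSeq, GRCm38.p6), and matches that overlap are printed as 1 run. Isg15 holds 3 matches and Oas1a 2 in such a run, Ifit1 has 2 apart, and Rsad2 has 1. Oas1g, not printed, has the same run as Oas1a, so the 10 members are not all independent.
Isg15 (chr4:156200860-156200911, minus strand): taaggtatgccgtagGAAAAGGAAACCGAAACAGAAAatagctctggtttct
Ifit1 (chr19:34640770-34640828, plus strand): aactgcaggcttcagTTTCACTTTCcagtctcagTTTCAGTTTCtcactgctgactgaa
Oas1a (chr5:120907526-120907560, minus strand): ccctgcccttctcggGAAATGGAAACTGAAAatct
Rsad2 (chr12:26456548-26456587, minus strand): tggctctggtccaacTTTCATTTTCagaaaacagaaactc

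MHC class I and peptide loading genes fell in 12 of 20 members and rose in none. With the muscle covariate 4 of 20 were lower, against 4.35% of all genes in that fit. Tap1, a subunit of the transporter that brings peptides to class I molecules (chromosome 17, 34187553 to 34197225), had 25.4 to 45 CPM (median 37.7) in invasive carcinoma, against 53.6 to 89.6 CPM (median 80.7) in hyperplasia (log2 fold change -1.08 ± 0.18, adjusted p = 0.00011). The light chain B2m had 279 to 460 CPM (median 392) in invasive carcinoma, against 547 to 759 CPM (median 705) in hyperplasia (log2 fold change -0.78 ± 0.17, adjusted p = 0.00091), and the class I gene H2-Q6, one of a family of close copies between which reads can be shared, fell by 1.43 ± 0.28. The groups did not overlap for any of the 3. Their means in hyperplasia were again the highest of all stages, for Tap1 as follows: normal 19.9, hyperplasia 77.2, dysplasia 41.8, carcinoma in situ 40, invasive carcinoma 36.6 CPM. Class II genes showed no such shift, with 1 of 11 higher (none without C06) and none lower, and 1 and 0 with the muscle covariate.

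**Figure D3:**
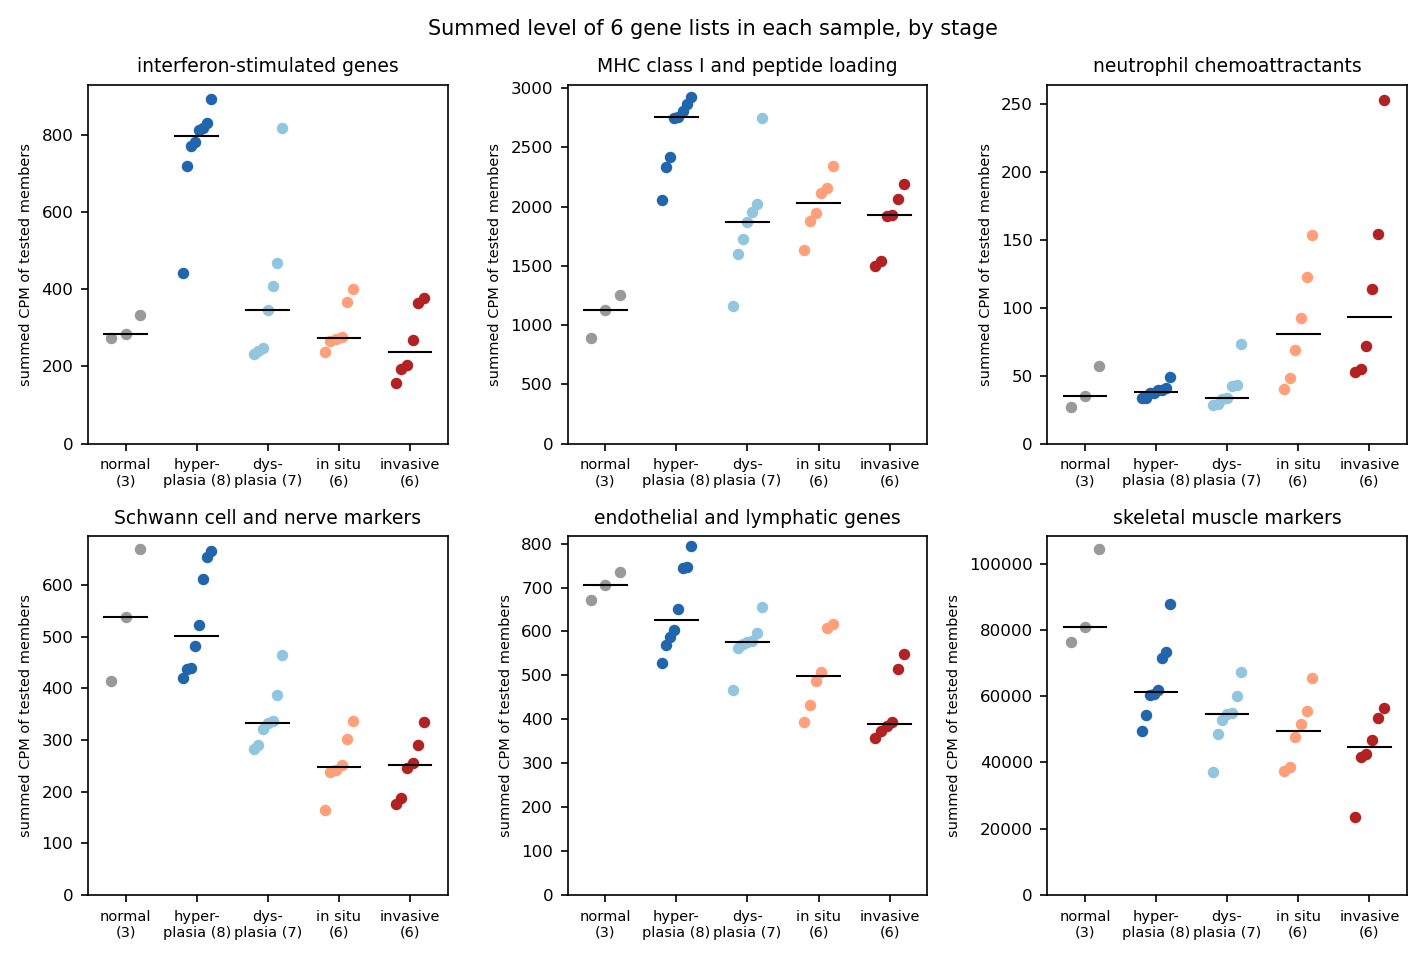
Summed CPM of 6 gene lists in every sample of the 5 stages, ordered from normal to invasive carcinoma, with a line at each median. Interferon-stimulated and MHC class I genes are highest in hyperplasia, and neutrophil chemoattractants are 52.96 to 253.06 CPM in invasive carcinoma, all above the 33.2 to 49.0 CPM of hyperplasia.

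Lymphocyte genes did not move in 1 direction as a list. T cell and cytotoxic markers gave 4 higher and 1 lower of 25, with a median of -0.018, so neither share was above the background. Without C03 or C09 2 were higher, without A08 or C08 2 were lower and without C03 3, and with the muscle covariate 1 was higher and none lower. Trdc, the constant chain of the gamma delta T cell receptor, had 3.77 to 7.18 CPM (median 5.33) in invasive carcinoma, against 0.257 to 1.63 CPM (median 1.17) in hyperplasia and did not overlap (log2 fold change 2.34 ± 0.43, adjusted p = 0.00021). Tbx21, the T helper 1 and cytotoxic regulator, was lower, at 0.142 to 0.69 CPM (median 0.536) in invasive carcinoma, against 0.301 to 1.5 CPM (median 1.26) in hyperplasia (log2 fold change -1.15 ± 0.37, adjusted p = 0.017). Foxp3, which defines regulatory T cells, had 0.709 to 1.85 CPM (median 1.28) in invasive carcinoma, against 1.29 to 3.21 CPM (median 1.96) in hyperplasia (log2 fold change -0.66 ± 0.23, adjusted p = 0.025), a call that was lost when A01, C09 or C12 was left out and with the muscle covariate. Lrrc32, which presents TGF-beta on regulatory T cells and vessels, was higher, at 15.3 to 34.7 CPM (median 18.6) in invasive carcinoma, against 8.99 to 16.2 CPM (median 12.5) in hyperplasia (log2 fold change 0.72 ± 0.15, adjusted p = 0.00057). Of 11 regulatory T cell genes 1 was higher and 3 lower, without A01, C09 or C12 1 was lower, and with the muscle covariate none was called. Tbx21 and Lrrc32 were not called with the muscle covariate.

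Of 20 checkpoint ligands and inhibitory receptors 6 were higher and 2 lower, against 19.1% and 19.2% of all genes. With the muscle covariate 3 were higher and 1 lower. Pdcd1, the receptor PD-1, had 1.41 to 2.32 CPM (median 1.99) in invasive carcinoma, against 0.392 to 1 CPM (median 0.719) in hyperplasia and did not overlap (log2 fold change 1.48 ± 0.31, adjusted p = 0.00064). Its ligand Cd274 was not called, at 5.01 to 13.6 CPM (median 11) in invasive carcinoma, against 9.74 to 15.5 CPM (median 11.7) in hyperplasia (log2 fold change -0.23 ± 0.27, adjusted p = 0.53). Cd47, which holds off macrophages, and Cd276, a B7 family ligand, rose by 0.32 ± 0.07 and 0.62 ± 0.13 without overlap, and Cd276 was not called with the muscle covariate. Lgals9, a ligand of the inhibitory receptor TIM-3, had 23 to 33.6 CPM (median 28.5) in invasive carcinoma, against 39 to 72.1 CPM (median 60.5) in hyperplasia (log2 fold change -1.09 ± 0.17, adjusted p = 4.6e-05), and its stage means were normal 27.1, hyperplasia 59.1, dysplasia 28.6, carcinoma in situ 30.3, invasive carcinoma 27.8 CPM.

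Macrophage and monocyte markers were higher in 7 of 24 and lower in 1, against 19.1% and 19.2% of all genes. With the muscle covariate 3 were higher and 0 lower. The lower count was 3 without C05 and 0 without C12. Ccl2, which recruits monocytes, had 2.7 to 8.6 CPM (median 7.24) in invasive carcinoma, against 1.76 to 2.49 CPM (median 2.16) in hyperplasia and did not overlap (log2 fold change 1.54 ± 0.30, adjusted p = 0.00035). Ccl20, which attracts Langerhans cells and interleukin-17 producing T cells, had 1.06 to 4.29 CPM (median 2.65) in invasive carcinoma, against 0.196 to 1.06 CPM (median 0.578) in hyperplasia (log2 fold change 2.32 ± 0.39, adjusted p = 8.5e-05). Cd207, the langerin of Langerhans cells, had 2.98 to 12.3 CPM (median 5.72) in invasive carcinoma, against 1.59 to 3.75 CPM (median 2.24) in hyperplasia (log2 fold change 1.41 ± 0.26, adjusted p = 0.00018). Of 17 dendritic and Langerhans cell markers 4 were higher, near the 19.1% of all genes, and none lower. Higher members numbered 2 without C06 or C08 and 2 with the muscle covariate. Without C05 or C06 1 was lower. Blk, a kinase of B cells and of gamma delta T cells, had 1.08 to 2.55 CPM (median 1.45) in invasive carcinoma, against 0 to 0.504 CPM (median 0.198) in hyperplasia (log2 fold change 3.0 ± 0.43, adjusted p = 1.7e-05), while the other B cell calls hung on single samples: 4 of 11 were higher, 1 without C09 or C12, 2 without any one of A01 and A03 to A08, and 1 with the muscle covariate.

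Genes of basal and of injured squamous epithelium rose. Basal keratinocyte genes were higher in 10 of 16 and lower in 1, and 5 and 0 with the muscle covariate. Krt14, the basal keratin (chromosome 11, 100203162 to 100207548), had 3423 to 10826 CPM (median 5978) in invasive carcinoma, against 2003 to 3444 CPM (median 2860) in hyperplasia (log2 fold change 1.25 ± 0.21, adjusted p = 9.3e-05). Trp63, the master regulator of stratified epithelium, had 259 to 420 CPM (median 335) in invasive carcinoma, against 141 to 253 CPM (median 190) in hyperplasia and did not overlap (log2 fold change 0.74 ± 0.13, adjusted p = 0.00011). Injury keratins and alarmins were higher in 21 of 25 and lower in none, and in 14 with the muscle covariate. Krt17, a keratin of wounded epithelium, had 1393 to 4346 CPM (median 3482) in invasive carcinoma, against 428 to 1564 CPM (median 962) in hyperplasia (log2 fold change 1.75 ± 0.31, adjusted p = 0.00015). Sprr1a, a cross-linked envelope protein, had 467 to 1366 CPM (median 889) in invasive carcinoma, against 248 to 552 CPM (median 300) in hyperplasia (log2 fold change 1.46 ± 0.25, adjusted p = 0.00011). Part of that list is the Sprr2 family, close copies between which reads can be shared.

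Genes of the upper layers were mixed. Krt76, a keratin of the oral suprabasal layers, had 226 to 1056 CPM (median 597) in invasive carcinoma, against 1123 to 1954 CPM (median 1444) in hyperplasia and fell without overlap (log2 fold change -1.32 ± 0.35, adjusted p = 0.0049), and Krt24 fell by 0.93 ± 0.21. Krt1, a keratin of the epidermis, was higher, at 76.2 to 216 CPM (median 107) in invasive carcinoma, against 12.9 to 96.9 CPM (median 34.8) in hyperplasia (log2 fold change 1.61 ± 0.43, adjusted p = 0.0053). Suprabasal keratins gave 2 higher and 4 lower of 13, and 0 and 1 with the muscle covariate, with neither Krt76 nor Krt1 called. Cornified envelope genes gave 4 higher and 6 lower of 31, which is at or below the background, and 0 and 1 with the covariate. Without C05 there were 7 higher. In that list Tgm1, the cross-linking enzyme, rose by 0.59 ± 0.12 and Ppl, the periplakin scaffold, fell by 0.53 ± 0.14, and neither was called with the covariate.

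Proteases that loosen the upper layers rose: squamous kallikreins were higher in 9 of 10 and lower in none, and in 5 with the muscle covariate. Klk13, one of these serine proteases, had 219 to 405 CPM (median 368) in invasive carcinoma, against 128 to 206 CPM (median 156) in hyperplasia and did not overlap (log2 fold change 1.13 ± 0.14, adjusted p = 2.2e-06). Among desmosomal cadherins Dsg3, of the lower layers, had 401 to 927 CPM (median 651) in invasive carcinoma, against 237 to 461 CPM (median 288) in hyperplasia (log2 fold change 1.01 ± 0.17, adjusted p = 7.7e-05). Dsg1a, of the upper ones, had 352 to 622 CPM (median 521) in invasive carcinoma, against 580 to 919 CPM (median 744) in hyperplasia (log2 fold change -0.55 ± 0.14, adjusted p = 0.0032). Desmosome genes gave 7 higher and 2 lower of 15, with 4 higher without C12 and 1 higher and 1 lower with the muscle covariate. Of 22 squamous transcription factors 9 were higher and none lower, and 4 with the covariate. Elf3 and Klf5, which drive epithelial differentiation, rose by 1.25 ± 0.20 and 0.44 ± 0.08 without overlap.

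Cell division genes differed little between the 2 groups. Of 35 DNA replication genes 6 were higher and 1 lower, and of 30 mitosis genes 1 was higher and none lower, none of these shares above the 19.1% and 19.2% of all genes. Pcna, the sliding clamp of DNA polymerase, had 48.6 to 76.7 CPM (median 69) in invasive carcinoma, against 44.1 to 60.1 CPM (median 52.6) in hyperplasia (log2 fold change 0.34 ± 0.10, adjusted p = 0.007). Birc5, survivin, had 17 to 30.8 CPM (median 25.3) in invasive carcinoma, against 17.3 to 22.4 CPM (median 18.5) in hyperplasia (log2 fold change 0.37 ± 0.14, adjusted p = 0.033). The replication count fell to 3 without A01, A08 or C12, to 2 without C06 or C09, and to 0 with the muscle covariate, under which the lower members numbered 4 in place of 1 (6 with muscle and salivary covariates). The mitosis count was 5 without C05, 3 without A03 and 2 without A05 or A07. The Birc5 call ended without any one of A01, A02, A04, A08, C06, C08, C09 and C12. E2f2, an activator of replication genes, fell by 0.65 ± 0.14.

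Regulators of the G1 phase changed more. Cdkn2a, the tumour suppressor locus of p16 and p19Arf (chromosome 4, 89274471 to 89294653), had 4.72 to 8.08 CPM (median 6.99) in invasive carcinoma, against 1.27 to 4.11 CPM (median 3.42) in hyperplasia and rose without overlap (log2 fold change 1.11 ± 0.30, adjusted p = 0.0047). Cdkn2b, its neighbour, rose by 0.39 ± 0.10. Cdkn1a, the p53-induced inhibitor p21, had 231 to 316 CPM (median 265) in invasive carcinoma, against 316 to 509 CPM (median 401) in hyperplasia and fell without overlap (log2 fold change -0.59 ± 0.11, adjusted p = 0.00028), and Ccnd2, a D-type cyclin, fell by 0.56 ± 0.09. In the G1 list 7 of 17 were higher and 5 lower, 3 lower without A03 or C09, and 0 and 2 with the muscle covariate, so neither Cdkn2a nor Cdkn2b was called with it.

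Genes that drive oral squamous carcinoma when mutated gave 10 higher and 1 lower of 26, and 2 and 1 with the muscle covariate. The 1 that fell was Notch1, a tumour suppressor of squamous epithelium, at 66.8 to 119 CPM (median 93.1) in invasive carcinoma, against 113 to 153 CPM (median 144) in hyperplasia (log2 fold change -0.55 ± 0.12, adjusted p = 0.00093). Without C03 there were 3 lower members and without C05 2. Trp53, in human oral cancer the most often mutated tumour suppressor, had 53.5 to 74.3 CPM (median 60.2) in invasive carcinoma, against 46.9 to 56.9 CPM (median 52.6) in hyperplasia (log2 fold change 0.26 ± 0.07, adjusted p = 0.0058), and Ajuba, a junction protein, rose by 0.46 ± 0.10. With the muscle covariate neither was called. Notch receptors, ligands and targets gave 1 higher (Jag1, by 0.64 ± 0.14, not called with the muscle covariate) and 6 lower of 14 (2 lower with it). Wnt genes gave 7 higher and 7 lower of 28, near the 19.1% and 19.2% of all genes. There were 3 lower without C09 or C12, and 2 higher and 2 lower with the covariate. Sfrp1, a Wnt antagonist, rose by 0.82 ± 0.11, and the ligand Wnt6 fell by 1.34 ± 0.22.

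More p53 targets fell than rose: 10 of 27 were lower and 1 higher, and 10 were lower and 0 higher with the muscle covariate. Higher members numbered 3 without A05, C03 or C05 and 2 without A07 or C08. Trp53inp1, a p53 target that promotes autophagy and cell death, had 40.8 to 83.6 CPM (median 51.2) in invasive carcinoma, against 76.3 to 111 CPM (median 91.2) in hyperplasia (log2 fold change -0.72 ± 0.14, adjusted p = 0.00026), and its stage means were normal 46, hyperplasia 90.7, dysplasia 46.1, carcinoma in situ 56, invasive carcinoma 55.1 CPM. Among NRF2 targets, which detoxify electrophiles, 9 of 31 were higher and 4 lower, against 19.1% and 19.2% of all genes. There were 4 higher without C03 or C12, and 2 higher and 4 lower with the covariate. Txn1, thioredoxin, had 317 to 609 CPM (median 431) in invasive carcinoma, against 228 to 305 CPM (median 278) in hyperplasia (log2 fold change 0.76 ± 0.14, adjusted p = 0.00025). Ephx1, an epoxide hydrolase, had 65.8 to 78.6 CPM (median 70.6) in invasive carcinoma, against 95.3 to 122 CPM (median 106) in hyperplasia and fell without overlap (log2 fold change -0.57 ± 0.10, adjusted p = 0.0001), and Aldh3a1, an aldehyde dehydrogenase, fell by 0.91 ± 0.19.

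More glycolysis and hypoxia genes rose than fell, and part of the oxidative phosphorylation genes fell. Hif1a, the oxygen-regulated transcription factor (chromosome 12, 73901375 to 73947530), had 266 to 857 CPM (median 443) in invasive carcinoma, against 118 to 222 CPM (median 140) in hyperplasia and did not overlap (log2 fold change 1.68 ± 0.21, adjusted p = 3.8e-06). Slc2a1, the glucose transporter GLUT1, had 157 to 786 CPM (median 228) in invasive carcinoma, against 68.7 to 121 CPM (median 93.2) in hyperplasia (log2 fold change 1.75 ± 0.27, adjusted p = 3.9e-05). Car12, a carbonic anhydrase at the cell surface, had 164 to 382 CPM (median 232) in invasive carcinoma, against 114 to 148 CPM (median 120) in hyperplasia (log2 fold change 0.98 ± 0.13, adjusted p = 6.1e-06). Pfkl, a phosphofructokinase, rose by 0.87 ± 0.14, again with no overlap. In that list 18 of 33 were higher and 2, Aldoa and Vegfa, were lower. Leaving out C12 left 11 higher, and leaving out A04, C09 or C12 left 1 lower. With the muscle covariate 13 were higher and 0 lower. The summed list overlapped, at 11701 to 13757 CPM in invasive carcinoma (median 12290) against 10196 to 14281 CPM in hyperplasia (median 11914).

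Nuclear genes of oxidative phosphorylation were lower in 15 of 34 and higher in none. The count was 5 without C12, 9 without A04 or C09, and 0 with the muscle covariate. Sdha, a subunit of complex II, had 375 to 742 CPM (median 582) in invasive carcinoma, against 691 to 963 CPM (median 819) in hyperplasia (log2 fold change -0.53 ± 0.14, adjusted p = 0.0036), and Ndufs1, of complex I, fell by 0.49 ± 0.13. Transcripts of the mitochondrial genome took 6.59% ± 1.37 of the counts in invasive carcinoma (SD, n = 6) and 9.16% ± 1.16 in hyperplasia (SD, n = 8), a difference of -2.57 percentage points (exact permutation test over 3003 splits, two-sided p = 0.00333). Of 11 tested mitochondrial transcripts 7 were lower, among them mt-Nd2, which fell by 0.63 ± 0.15, and none was called with the muscle covariate. Skeletal muscle, a tissue rich in mitochondria, had a lower marker sum in the same samples, and its part in these results was not tested.

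Markers of nerve, vessels, stroma and muscle fell in large part. Schwann cell and nerve markers were lower in 13 of 15 and higher in none, and lower in 9 with the muscle covariate. Without the covariate, 9 of them had no overlap, against 3.96% of all genes. Prx, a Schwann cell protein that keeps myelin stable (chromosome 7, 27499324 to 27520214), had 12 to 23.5 CPM (median 20.2) in invasive carcinoma, against 27.1 to 54.6 CPM (median 41.6) in hyperplasia and did not overlap (log2 fold change -1.13 ± 0.18, adjusted p = 4.5e-05). Pmp22 fell by 1.14 ± 0.18 and Mbp by 0.73 ± 0.13, both myelin proteins and both without overlap. Summed, the list gave 177 to 336 CPM in invasive carcinoma (median 251) against 420 to 666 CPM in hyperplasia (median 502).

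Endothelial and lymphatic genes were lower in 14 of 18 and higher in none, and in 5 with the muscle covariate. Pecam1, the endothelial adhesion molecule CD31, had 49.4 to 70 CPM (median 52) in invasive carcinoma, against 74.4 to 110 CPM (median 90.6) in hyperplasia (log2 fold change -0.67 ± 0.11, adjusted p = 4.9e-05), and Tie1, an endothelial kinase, fell by 0.80 ± 0.13, with no overlap for either. Fibroblast genes gave 2 higher and 9 lower of 22, and 1 and 4 with the covariate. Pdgfra, the receptor that marks fibroblasts, had 17.2 to 35.1 CPM (median 23.3) in invasive carcinoma, against 35.9 to 61.1 CPM (median 42.2) in hyperplasia (log2 fold change -0.89 ± 0.14, adjusted p = 5.9e-05). Dcn, the matrix proteoglycan decorin, had 279 to 578 CPM (median 413) in invasive carcinoma, against 605 to 860 CPM (median 641) in hyperplasia (log2 fold change -0.72 ± 0.13, adjusted p = 0.00018). Fap, a protease of activated fibroblasts, fell by 1.02 ± 0.19, and none of these 3 overlapped. Collagen genes gave 2 higher and 10 lower of 20, and 0 and 1 with the covariate, and Col3a1, which fell by 0.85 ± 0.19, was not called with it. The higher collagens numbered 4 without C05 and 1 without C09.

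Skeletal muscle markers were lower in 20 of 33 and higher in none (1 without A08 or C08). Pvalb, a calcium buffer of fast fibres, had 70.5 to 149 CPM (median 116) in invasive carcinoma, against 214 to 744 CPM (median 368) in hyperplasia (log2 fold change -1.77 ± 0.29, adjusted p = 7.9e-05). Actn3, the fast-fibre actinin, had 33.6 to 59.4 CPM (median 46.6) in invasive carcinoma, against 71.8 to 350 CPM (median 150) in hyperplasia (log2 fold change -1.87 ± 0.38, adjusted p = 0.00061). Tcap, a cap protein of the sarcomere, fell by 0.85 ± 0.18, and no invasive carcinoma reached the hyperplasia range for any of these 3 genes. With the muscle score itself in the fit 2 members were lower and 1 higher, and Actn3 was not called. Salivary markers gave 1 higher of 15, Lpo, a peroxidase of saliva, at 6.79 to 46.7 CPM (median 18.5) in invasive carcinoma, against 0.129 to 17.4 CPM (median 1.63) in hyperplasia (log2 fold change 2.51 ± 0.77, adjusted p = 0.012). Adipocyte markers gave 2 lower of 12, among them Plin4, a coat protein of lipid droplets, which fell by 0.93 ± 0.24. No salivary or adipocyte marker was called with the muscle covariate, Lpo and Plin4 included. Without C08 2 salivary markers were higher, and without any one of A05, C05, C06 and C08 1 adipocyte marker was.

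The 6 invasive carcinomas differed among themselves, and the same samples were often the extreme ones. C09 was the highest of the 6 for 1437 of the 3376 genes that rose (42.6%) and C12 for 1148 (34%). C12 was the lowest for 1931 of the 3392 genes that fell (56.9%) and C09 for 787 (23.2%). At the other end C05 was the lowest for 1757 of the genes that rose (52%) and the highest for 1681 of those that fell (49.6%), so it was most often the nearest to hyperplasia. Within hyperplasia A05 was the highest sample for 990 of the genes that rose (29.3%), and A04 the highest for 1269 of those that fell (37.4%).

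**Figure D4:**
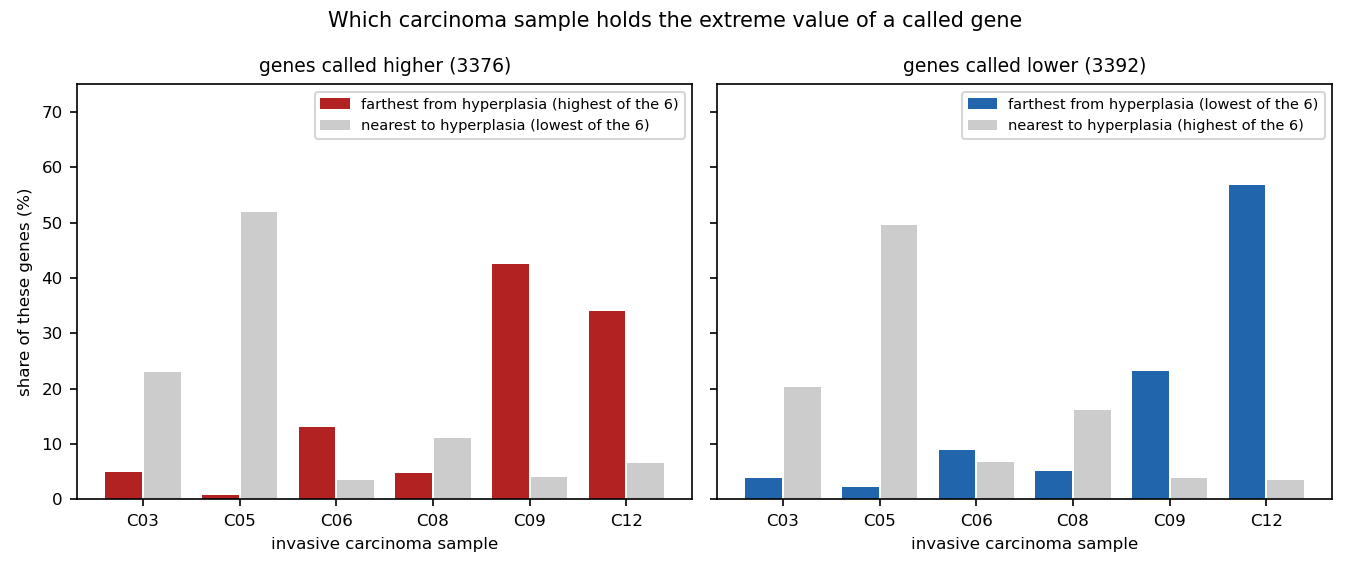
Percent of the called genes for which each of the 6 invasive carcinomas is farthest from hyperplasia or nearest to it, for genes higher and genes lower in invasive carcinoma. C09 and C12 are most often the farthest (42.6% and 34% of higher genes) and C05 the nearest (52% of higher and 49.6% of lower genes).

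Hyperplasia was an end point of the stage means for part of these genes. They were chosen by the difference between invasive carcinoma and hyperplasia in these same samples, which by itself makes both groups likelier end points. The shares below describe the called genes only and were not set against all tested genes. Of the 3376 genes that rose, invasive carcinoma had the highest of the 5 stage means in 2810 (83.2%), hyperplasia had the lowest in 996 (29.5%), and both held in 785 (23.3%). For the 3392 genes that fell, invasive carcinoma had the lowest mean in 2840 (83.7%) and hyperplasia the highest in 1209 (35.6%). Pvalb, for example, had these means by stage: normal 250, hyperplasia 400, dysplasia 166, carcinoma in situ 197, invasive carcinoma 117 CPM.

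Carcinoma in situ (6 samples) and dysplasia (7 samples), from mice under the same labelled protocol, give a second comparison of a later with an earlier stage. It shares no sample with the first but is not independent of it in the code letter. Codes begin with C in carcinoma in situ, as in invasive carcinoma, and with B in dysplasia. A batch that follows the letter C cannot be told apart from later stage in either comparison, nor in the calls they share. It called 964 genes, 528 higher (2.99% of the tested genes) and 436 lower (2.47%) in carcinoma in situ. Of the 3376 genes higher in invasive carcinoma 390 were also higher here (11.6%) and 11 lower, and of the 3392 lower genes 174 were also lower (5.13%) and none higher. Read from the other side, 564 of the 964 (58.5%) were called in the same direction in both. Upper-quartile scaling called 1076 genes, of which 67.8% were higher, against 54.8% with TMM.

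The shared calls included many of the invasion and neutrophil genes. Mmp13 averaged 14.8 ± 11.1 CPM in carcinoma in situ (n = 6) and 1.15 ± 1.33 CPM in dysplasia (SD, n = 7), a log2 fold change of 3.67 ± 0.83 (adjusted p = 0.017). The same contrast gave 4.98 for Mmp10 (adjusted p = 0.0083), 2.42 for Inhba (adjusted p = 0.0067) and 3.35 for Cxcl1 (adjusted p = 0.0071). Of the 16 neutrophil chemoattractant genes 10 were higher and none lower in carcinoma in situ, against backgrounds of 2.99% and 2.47%. Interferon-stimulated genes gave no call in either direction, with a median of -0.439, and Isg15 averaged 9.22 CPM in carcinoma in situ and 16.1 CPM in dysplasia (log2 fold change -0.80, adjusted p = 0.18). Injury keratins and alarmins gave no call either, with a median of 0.0475. Between 164 and 2201 genes were called when single samples were left out (164 without C07, 2201 without C04).

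**Figure D5:**
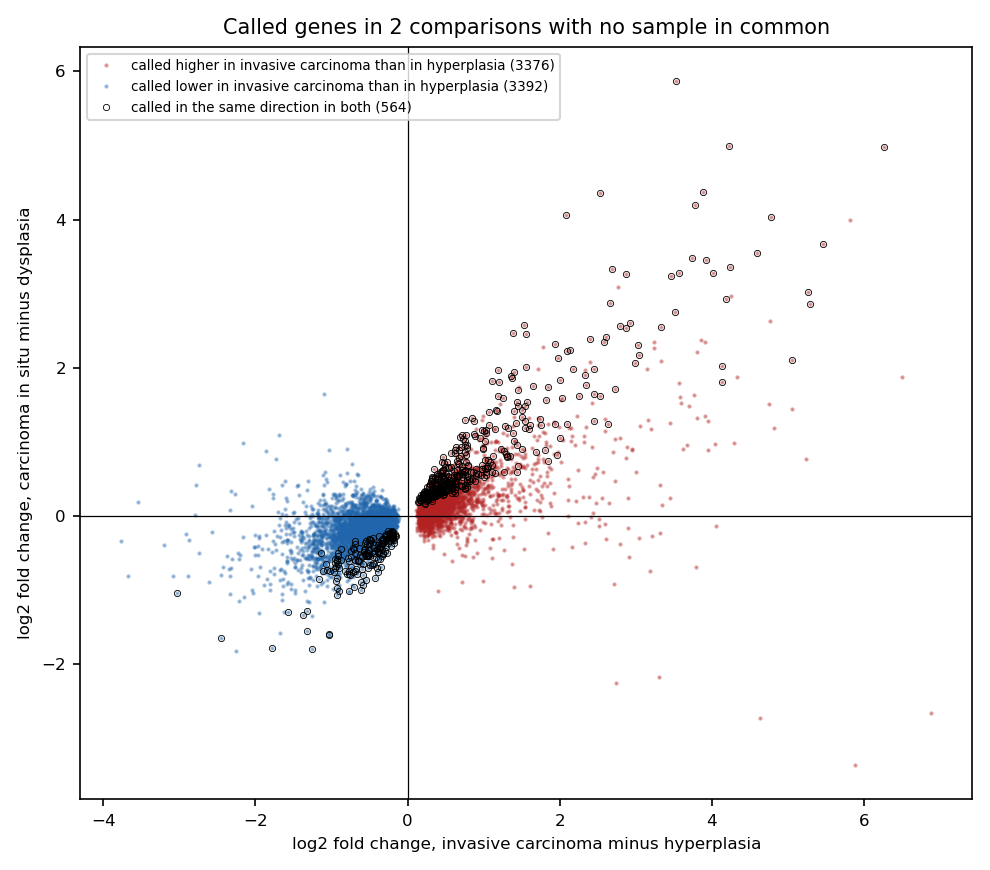
Log2 fold change of each called gene in invasive carcinoma over hyperplasia (horizontal) and in carcinoma in situ over dysplasia (vertical). Open circles mark the 564 genes called in the same direction in both, which lie at the upper right (390 genes) and lower left (174 genes).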

How the data were processed

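For 30 samples the authors deposited raw counts by Ensembl gene in 1 table, whole numbers that sum to a different total in each. The submitters' processing notes name cutadapt 2.4, STAR 2.7.2a and the build GRCm38, and per the labels the library kit was stranded. The counting tool, strand setting and annotation release are not given in the sources used here, so overlapping and antisense genes, and close copies, may share reads. Of 55487 identifiers 55227 matched GENCODE M21 (GRCm38) without the version, and 21379 had no count in any sample. Promoter sequence is from RefSeq (GRCm38.p6).

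In R 4.3.3, edgeR 4.0.16 kept 17638 genes with filterByExpr and scaled libraries with TMM. Its robust quasi-likelihood model had a mean for each stage and used all 30 samples (common dispersion 0.0576, a biological coefficient of variation of 24%), so that the groups share 1 estimate of the spread. Contrasts were two-sided, adjusted over all tested genes by the Benjamini-Hochberg method, and called at an adjusted p under 0.05. SE is the size of the log2 fold change over the square root of its F. After the real fit, the test was also run on counts simulated from the mean levels and dispersions of these data, with an outcome not reported here. The mitochondrial share was compared by an exact permutation test. The floor for a gene with no count is 3 counts over the group, a limit for counting error alone.

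Genes are described by 48 lists, some of which share members, each given by its counts and median beside those of all genes, with no set test. The comparison, lists and rules were chosen with earlier results of these data known. Named genes are called genes with at least 10 CPM in the higher group and an annotated symbol (the 15 largest changes and 10 smallest adjusted p in each direction), up to 4 called members of each list, and members of the driver, checkpoint, EGF receptor and metalloproteinase lists. Predicted genes, pseudogenes and antigen receptor segments, 167 called genes, were left out of the ranking. Some genes that the rule would name are not reported here.

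The results were recomputed by DESeq2 1.42.0 and by limma-voom (limma 3.58.1, sample weights), with RLE or upper-quartile scaling, and without the expression filter. Further alternatives restricted the fit to the compared groups, lowered the threshold to 0.01, tested against a 1.5-fold change (glmTreat), added muscle and salivary scores (mean log2 CPM of those lists) as covariates, dropped muscle genes, left out each sample, or used the code number as a replicate block. Leaving out A08 and C12, leaving out C09 and C12, and fitting the block's 8 samples without it were chosen after seeing the data. Python 3.11.15 (pandas 2.3.3, numpy 2.4.6, matplotlib 3.10.9) made tables and figures.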

Additional observations from a re-analysis of the deposited data

Results flagged for a closer look

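Of 272 groups of named gene values checked for a single sample far from the others of its group, 22 held one (8.09%), and chance gives about 1 in 20. A05 accounts for 9 of them. It was the lowest hyperplasia sample for the interferon-stimulated genes Apol9a (10.1 CPM), Irf7 (17.7 CPM), Oas1a (14.2 CPM) and Dhx58 (8.73 CPM), and the highest for Csn1s1 (0.951 CPM), Mmp3 (7.78 CPM), Lgi2 (14.1 CPM), Hif1a (222 CPM) and the neutrophil marker BC100530 (6.72 CPM). In each of the 9 it lay on the side of invasive carcinoma and still outside its range.

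A01 was the highest hyperplasia sample for the stromal genes Mmp2 (113 CPM), Timp2 (182 CPM), Dcn (860 CPM) and Col3a1 (464 CPM). A08 was the lowest for Fgfbp1 (50.3 CPM) and Cdkn2a (1.27 CPM), A04 the lowest for Skil (40.2 CPM) and Trdc (0.257 CPM), and A06 the highest for Nlrp3 (1.35 CPM). Among invasive carcinomas C12 was the highest for Cdh1 (412 CPM) and Lrrc32 (34.7 CPM), and the lowest for Cd274 (5.01 CPM) and the muscle gene Tcap (203 CPM).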

How the results depend on the processing

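Invasive carcinoma against hyperplasia gave 6768 called genes, and 5520 to 7120 with RLE or upper-quartile factors, no expression filter, DESeq2, limma-voom or only the groups compared. It gave 4009 at an adjusted p under 0.01, 407 by glmTreat, 1830 with the muscle covariate, 2138 with muscle and salivary covariates, 3175 without C09 and C12, and 5376 to 7475 with single samples left out. No gene was called in the opposite direction under any of these. Carcinoma in situ against dysplasia gave 964 called genes and 4112 at an unadjusted p under 0.05. It gave 327 without the filter, 1537 by DESeq2, 2241 by limma-voom, 200 with only the groups compared, 62 at an adjusted p under 0.01, 0 by glmTreat, 2448 and 2804 with the covariates, and 164 to 2201 with single samples left out. Causes of these shifts were not tested, beyond the fewer samples or stricter rule that some settings imply.

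The number in the sample code was used as a replicate block in the 8 samples of each comparison that share one. The block gave 195 called genes, against 713 in the same samples without it, and 0 in the second comparison with or without it. Same-numbered samples, each centred on its group, correlated at 0.2, -0.323, -0.119 and -0.564 in the first comparison. Of the 4 pairs 1 correlated best with its own number. So few pairs cannot decide whether the number marks a pairing, and the labels do not say what it is.

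Of the 135 named genes called, 35 lost the call with the muscle covariate and 61 against a 1.5-fold change (glmTreat). With the block 110 lost it (71 in the same 8 samples without it). Among those still tested, Birc5 and Foxp3 were the only ones lost when single samples were left out. Without C09, and likewise without C12, 132 calls were kept and 2 lost, and what remained of the 135 was not tested. Without C09 and C12 further calls ended, among them Mmp9 (1.36), Timp1 (0.984), Krt76 (-1.09) and Sdha (-0.346, log2 fold changes). Cd274, not called, was positive with the muscle covariate (0.237), with both covariates (0.239), with the block (0.0672) and in the same 8 samples without it (0.0717). The mitochondrial difference was -2.92 to -2.21 percentage points with single samples left out. Depth limits low genes such as Mmp1b and Trdc.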

Other observations

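Genes of the skin lipid barrier, which make and export the ceramides and fatty acids of the outer layers, were higher in 10 of 25 members and lower in 5 in invasive carcinoma. The count of higher members was 6 without C09, and that of lower members 2 without any one of A03, A07, C06 and C12 and 3 without C08, so it hung on single samples. With the muscle covariate 2 were higher and 2 lower. Mast cell genes gave 1 higher and 2 lower of 12, with 1 lower without any one of A01, A03, A06, C03, C09 and C12, and 1 higher and none lower with the muscle covariate.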
